A study of Mus musculus with 6 samples.

Results

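Arginine is the substrate for which several macrophage enzymes compete after a bacterial stimulus. Inducible nitric oxide synthase turns it into nitric oxide and citrulline, arginase turns it into ornithine and urea, and ornithine decarboxylase passes ornithine on to the polyamines. Citrulline can be rebuilt into arginine by argininosuccinate synthase and argininosuccinate lyase. Itaconate is drawn from the tricarboxylic acid cycle by a separate LPS-induced enzyme and inhibits succinate dehydrogenase. The 9 genes described here cover these steps: the arginine transporter Slc7a2, the nitric oxide synthase Nos2 and its cofactor gene Gch1, the recycling enzymes Ass1 and Asl, the arginases Arg1 and Arg2, ornithine decarboxylase Odc1, and the itaconate enzyme Irg1 (also named Acod1). They were chosen by name from the 24016 genes of the deposited RPKM table (exon reads per length of transcript and library depth). Of the 9 genes, 8 had at least 10 reads in at least 3 libraries and were tested among 11991 such genes, and 1, Arg1, did not and was treated as not measured.

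The cells were bone marrow-derived macrophages, grown with 20 ng/mL M-CSF from marrow of 8-week-old female C57BL/6N mice. The medium held no phenol red and its serum was charcoal-stripped. Replicates 1, 2 and 3 of the hydroxyestrogen group were 2OHE2, 4OHE1 and 2OHE1. These are catechol estrogens: 2-hydroxyestradiol, 4-hydroxyestrone and, for 2OHE1, 2-hydroxyestrone. Replicates 1, 2 and 3 of the control group were EtOH, the ethanol vehicle, E2, which is estradiol, and 16Epi, an estrogen named only by that label. Each estrogen was given at 1 µM for 1 h, the ethanol as the same dilution, and all 6 cultures then received 100 ng/mL LPS for 6 h, so no library shows an unstimulated level. The dose is read from 1 mM stocks diluted 1 to 1000, since its unit is garbled in the labels. The assignment follows the titles and column headers, with ethanol as the vehicle of the protocol; the characteristics carry a treatment entry that reverses it. Because each compound has 1 library, the spread within a group holds differences between compounds, and nothing in the labels says that the libraries came from separate animals, so the p-values measure the spread among these 6 libraries only.

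Reads in genes numbered 16424054 to 17326349 in the hydroxyestrogen libraries and 14734225 to 16059674 in the control libraries. A principal component analysis set the 4OHE1 library apart: its first-component score was 50.5, and those of the other 5 ran between -19.4 and -1.51 (30.6% of the variance). Macrophage markers were present: the 9 of 10 listed that the table holds summed to 7839 to 9037 RPKM in hydroxyestrogen and 8693 to 9067 RPKM in control libraries. Neutrophil markers summed to 32.7 to 38.4 against 37.0 to 49.3 RPKM, and fibroblast markers to 9.15 to 15.4 against 13.0 to 14.6 RPKM. Endothelial markers summed to 3.29 to 6.73 against 6.20 to 7.84 RPKM, dendritic cell markers to 1.95 to 2.63 against 2.21 to 2.96 RPKM and eosinophil markers to 0.135 to 1.84 against 0.458 to 0.612 RPKM. Finally, the T cell, B cell, mast cell and erythroid lists each stayed under 1 RPKM, with Cd3e, Cd79a, Ms4a1 and Hbb-b1 at 0 in all 6 libraries. The part of these levels in the results was not tested. In such bulk libraries, fewer cells of a type and less RNA per cell cannot be told apart.

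Promoters are shown for Ass1, which carried the clearest difference, and for Irg1, which was the most abundant of the genes and varied least. The RefSeq promoter table (build GRCm38.p6, not the mm9 build of the expression table) had an entry for 4 of the 9 genes, matched by transcript: Ass1, Irg1, Gch1 and Odc1. Each line gives the 250 bases before the annotated start, 5′ to 3′ on the gene's strand, at chr2:31470020-31470269 (plus strand) for Ass1 and chr14:103046762-103047011 (plus strand) for Irg1. Capitals mark the motif matches described after the sequences.
Ass1: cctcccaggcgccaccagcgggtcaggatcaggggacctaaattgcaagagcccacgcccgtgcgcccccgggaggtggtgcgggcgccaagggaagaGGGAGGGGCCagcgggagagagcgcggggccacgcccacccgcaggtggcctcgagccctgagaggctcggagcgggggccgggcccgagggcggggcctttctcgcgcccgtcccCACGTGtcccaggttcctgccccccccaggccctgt
Irg1: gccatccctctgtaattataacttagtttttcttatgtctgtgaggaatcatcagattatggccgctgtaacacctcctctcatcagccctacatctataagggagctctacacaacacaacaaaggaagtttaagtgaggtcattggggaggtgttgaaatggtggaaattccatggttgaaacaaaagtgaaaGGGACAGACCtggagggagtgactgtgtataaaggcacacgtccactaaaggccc

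A set of 6 motifs was searched on both strands in the 300-base window of each table entry (250 bases before and 50 after the start). For NF-kB these were GGGA and CC with any 4 bases between them, and its strict form with CTTT between them, which the looser form includes. For the interferon response element the motif was GAAA, any 2 bases and GAAA again. The others were TGACNNNGC for the antioxidant response element, CACGTG for the E-box and TTNNGCAA for C/EBP. Ass1 had the loose NF-kB form starting 152 bases before the start and the E-box 36 bases before it. Irg1 had the loose NF-kB form 55 bases before its start. Among 32851 promoters of the same length, 20.7% held the loose NF-kB form and 7.15% the E-box. The strict NF-kB form was in 0.155% of promoters, the interferon response element in 3.44%, the antioxidant response element in 12.4% and the C/EBP motif in 10.8%, and none of these 4 was in the Ass1 or Irg1 window. Gch1 and Odc1 had no match to any of the 6. A match is a string of letters, not a bound site.

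The first comparison asked how these genes stood in macrophages given a catechol estrogen before LPS against those given vehicle or a non-catechol estrogen. Ass1 transcripts were about 2-fold higher with all 3 hydroxyestrogens, and this was the only one of the 8 measured genes to pass the test. Odc1, Slc7a2 and Nos2 had lower values in every hydroxyestrogen library than in any control library, but their differences did not pass. Irg1, Gch1 and Asl stood close to control, and Arg2 was low and variable. Of all 11991 genes tested with limma (two-sided, Benjamini-Hochberg adjusted p under 0.05), 225 passed, which is 1.88% (1.28% higher and 0.6% lower), against 1 of the 8 measured genes here. The count over all genes leans on single controls: it was 125 without the EtOH library, 83 without E2 and 64 without 16Epi. Values of the groups did not overlap for 4 of the 8 genes, against 20% of all genes tested. The median log2 difference of the 8 was 0.02, beside -0.02 for all genes tested.

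**Figure D1:**
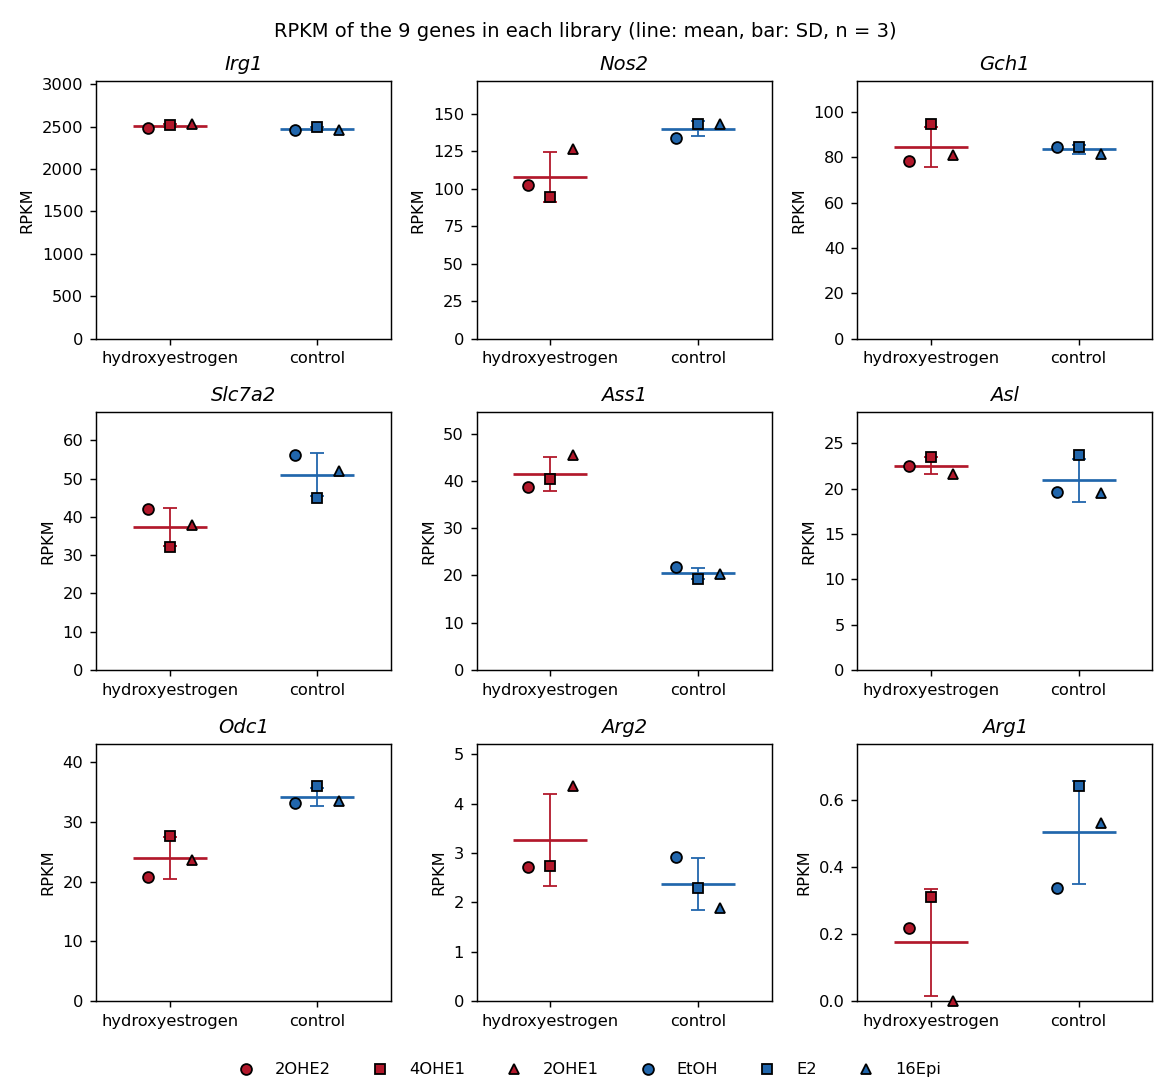
RPKM of each of the 9 genes (y axis, linear and starting at 0) in the 3 hydroxyestrogen libraries on the left and the 3 control libraries on the right of each panel; symbols stand for compounds, horizontal lines for group means and bars for SD (n = 3). The 3 hydroxyestrogen points for Ass1 lie between 38.6 and 45.4 RPKM, above the 3 control points at 19.3 to 21.7 RPKM, while those of Odc1, Slc7a2 and Nos2 lie below their controls and those of Irg1 are level with them; Arg1, with at most 16 reads in any library, is drawn but was treated as not measured.

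Arginine enters macrophages largely through Slc7a2, a cationic amino acid transporter of the plasma membrane. Slc7a2 (NM_001044740, chr8:41947721-42007424, plus strand, mm9) had 42.1, 32.1 and 37.9 RPKM in the 2OHE2, 4OHE1 and 2OHE1 libraries, against 56.1, 44.9 and 51.9 RPKM in the EtOH, E2 and 16Epi libraries. The groups did not overlap, though 2OHE2, the highest hydroxyestrogen library, came near E2, the lowest control. The log2 difference was -0.45 ± 0.12 (SE; 95% interval -0.72 to -0.18), with a limma adjusted p of 0.124. It rested on 4888 to 7873 reads per library.

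Nos2 encodes the inducible nitric oxide synthase, the source of most nitric oxide in activated macrophages. Nos2 (NM_010927, chr11:78734361-78773626, plus strand, mm9) had 102.7, 94.4 and 126.8 RPKM in the 2OHE2, 4OHE1 and 2OHE1 libraries, against 134.1, 143.1 and 142.9 RPKM in the EtOH, E2 and 16Epi libraries. The controls lay close together, at 140.0 ± 5.14 RPKM, while the hydroxyestrogens averaged 108.0 ± 16.8 RPKM (SD, n = 3 each) and 2OHE1 came within 10 RPKM of the nearest control. The log2 difference was -0.39 ± 0.10 (SE; 95% interval -0.62 to -0.15), with a limma adjusted p of 0.128. Without the 2OHE1 library (hydroxyestrogen replicate 3), the adjusted p was 0.0194. It was 0.214 without 2OHE2 and 0.239 without 4OHE1, and reached 0.380 among the alternative settings.

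Gch1 encodes GTP cyclohydrolase, the first enzyme of the synthesis of tetrahydrobiopterin, a cofactor that nitric oxide synthases need. Gch1 (NM_008102, chr14:47773570-47809077, minus strand, mm9) had 78.3, 94.6 and 80.8 RPKM in the 2OHE2, 4OHE1 and 2OHE1 libraries, against 84.6, 84.3 and 81.3 RPKM in the EtOH, E2 and 16Epi libraries. The 4OHE1 library was the highest of all 6 and the other 2 hydroxyestrogens were the lowest. The log2 difference was 0.02 ± 0.08 (SE; 95% interval -0.17 to 0.20; limma adjusted p = 0.964). It was -0.07 without 4OHE1 and -0.00275 without 16Epi, so it has no settled sign.

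Ass1 encodes argininosuccinate synthase, which joins citrulline to aspartate and limits the rate at which arginine is rebuilt. Ass1 (NM_007494, chr2:31325790-31376190, plus strand, mm9) had 38.6, 40.4 and 45.4 RPKM in the 2OHE2, 4OHE1 and 2OHE1 libraries, against 21.7, 19.3 and 20.2 RPKM in the EtOH, E2 and 16Epi libraries. Every hydroxyestrogen library lay above every control, and the gap between the groups was wider than the range within either. The mean was 41.5 ± 3.54 RPKM with hydroxyestrogens and 20.4 ± 1.22 RPKM in controls (SD, n = 3 each), a 2.03-fold difference. Ass1 thus rose by 1.02 ± 0.10 on the log2 scale (SE; 95% interval 0.80 to 1.23; limma adjusted p = 0.00129), resting on 532 to 1354 reads per library. It passed in 13 of 14 alternative settings, including each of the 6 with a library left out. The exception was the fit without a variance trend, where the adjusted p was 0.0536.

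Asl encodes argininosuccinate lyase, the enzyme after Ass1 that releases arginine and fumarate. Asl (NM_133768, chr5:130487373-130500201, minus strand, mm9) had 22.5, 23.5 and 21.6 RPKM in the 2OHE2, 4OHE1 and 2OHE1 libraries, against 19.6, 23.7 and 19.5 RPKM in the EtOH, E2 and 16Epi libraries. All 3 hydroxyestrogen values lay inside the control range, which E2 extended upward. The log2 difference was 0.11 ± 0.11 (SE; 95% interval -0.13 to 0.35; limma adjusted p = 0.718). The interval ends well below the difference seen for Ass1.

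Within each library, the ratio of Ass1 to Asl RPKM was 1.72 for 2OHE2, 1.72 for 4OHE1 and 2.10 for 2OHE1, against 1.11, 0.816 and 1.04 for EtOH, E2 and 16Epi. Thus the 2 recycling transcripts were near parity in controls, and Ass1 exceeded Asl in every hydroxyestrogen library. The ratio of Ass1 to Nos2 averaged 0.387 ± 0.0360 with hydroxyestrogens and 0.146 ± 0.0141 in controls (SD, n = 3 each). Odc1 was below Ass1 in every hydroxyestrogen library and above it in every control, with ratios of Odc1 to Ass1 of 0.579 ± 0.0908 and 1.68 ± 0.167 (SD, n = 3 each). None of these ratios overlapped between the groups. For Ass1 to Nos2 and Odc1 to Ass1 this had to follow from the single genes. Ass1 was higher, and Nos2 and Odc1 were lower, in every hydroxyestrogen library than in any control. Each ratio gave an exact two-sided permutation p of 0.1, the smallest that 3 against 3 libraries allow. The ratios are given as descriptions and add no support to the single-gene values.

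**Figure D2:**
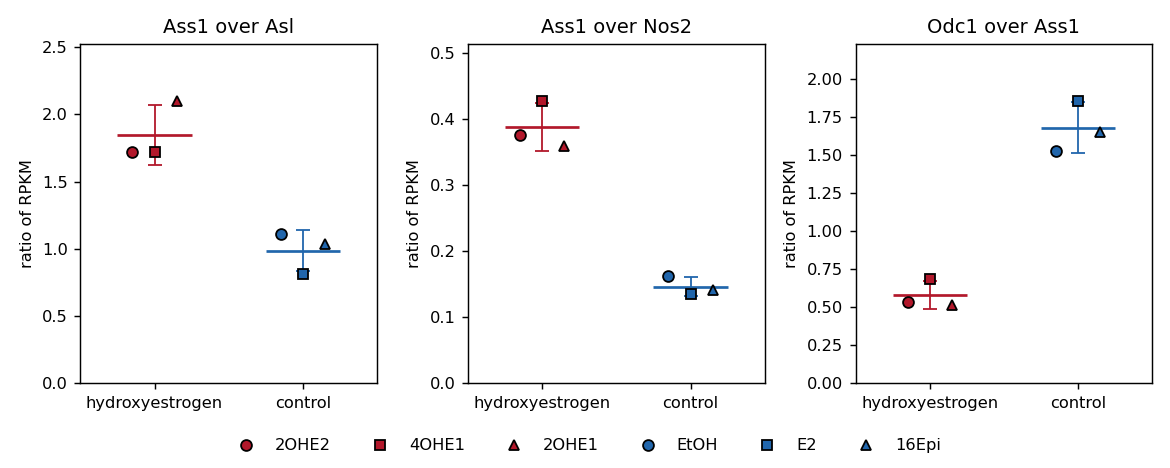
Ratios of RPKM within each library (y axes, linear and starting at 0) for 3 pairs of genes, hydroxyestrogen libraries on the left and control libraries on the right; lines are means and bars SD (n = 3). Ass1 over Asl lies between 1.72 and 2.10 with hydroxyestrogens and between 0.816 and 1.11 in controls, and Odc1 over Ass1 is below 1 with hydroxyestrogens and above 1 in controls.

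The arginases were at the low end of these genes. Arg2, the mitochondrial arginase (NM_009705, chr12:80231775-80257288, plus strand, mm9), had 2.71, 2.74 and 4.35 RPKM in the 2OHE2, 4OHE1 and 2OHE1 libraries, against 2.93, 2.29 and 1.88 RPKM in the EtOH, E2 and 16Epi libraries. The groups overlapped, and 2OHE1 alone stood above the rest. Its log2 difference of 0.44 ± 0.27 (SE; 95% interval -0.16 to 1.04; limma adjusted p = 0.528) rested on 44 to 113 reads per library. The span of Arg2 overlaps that of Vti1b on the other strand by 285 bases, and Vti1b is the more abundant gene at a mean of 31.9 RPKM. Whether reads were counted by strand is not stated, so the Arg2 values are uncertain.

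Arg1, the cytosolic arginase that marks alternatively activated macrophages (NM_007482, chr10:24635013-24647276, minus strand, mm9), had 6, 9 and 0 reads in the 2OHE2, 4OHE1 and 2OHE1 libraries, against 9, 16 and 13 reads in EtOH, E2 and 16Epi. The 0 in the 2OHE1 library allows up to 0.111 RPKM (3 reads, counting error only). Only the E2 and 16Epi libraries reached 10 reads, so Arg1 was not measured and no difference is given.

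Odc1 encodes ornithine decarboxylase, which makes putrescine and sets the pace of polyamine synthesis. Odc1 (NM_013614, chr12:17551679-17558308, plus strand, mm9) had 20.7, 27.6 and 23.5 RPKM in the 2OHE2, 4OHE1 and 2OHE1 libraries, against 33.2, 35.9 and 33.4 RPKM in the EtOH, E2 and 16Epi libraries. The groups were apart, with 4OHE1 the hydroxyestrogen nearest to the controls. The log2 difference was -0.52 ± 0.11 (SE; 95% interval -0.78 to -0.26), with a limma adjusted p of 0.0584, the nearest to the threshold among the genes that did not pass. Without the 4OHE1 library (hydroxyestrogen replicate 2), the adjusted p was 0.0249. It was 0.114 without 2OHE2, and reached 0.237 among the alternative settings.

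Irg1 encodes the mitochondrial enzyme that makes itaconate from cis-aconitate. Irg1 (NM_008392, chr14:103446229-103455790, plus strand, mm9) had 2488, 2519 and 2531 RPKM in the 2OHE2, 4OHE1 and 2OHE1 libraries, against 2464, 2499 and 2466 RPKM in the EtOH, E2 and 16Epi libraries. It ranked 13th of all genes by mean RPKM and took 0.729% of the reads in genes, so 106032 to 128421 reads stood behind each value. The log2 difference was 0.02 ± 0.06 (SE; 95% interval -0.11 to 0.15; limma adjusted p = 0.915). That interval is narrow beside the difference of Ass1.

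By mean RPKM over the 6 libraries the order was Irg1 (2495), Nos2 (124.0), Gch1 (84.0), Slc7a2 (44.2), Ass1 (30.9), Odc1 (29.0), Asl (21.7), Arg2 (2.81) and Arg1 (0.340). Ass1 and Odc1, neighbours in that order, exchanged places between the groups, as their ratio shows. By group mean Ass1 was also above Slc7a2 with hydroxyestrogens (41.5 against 37.4 RPKM) and below it in controls (20.4 against 51.0 RPKM). In the 2OHE2 library, though, Slc7a2 was the higher of the 2. With hydroxyestrogens the ranges of neighbours met in several places: Nos2 (94.4 to 126.8 RPKM) and Gch1 (78.3 to 94.6 RPKM), Slc7a2 (32.1 to 42.1 RPKM) and Ass1 (38.6 to 45.4 RPKM), and Odc1 (20.7 to 27.6 RPKM) and Asl (21.6 to 23.5 RPKM). In controls those 3 pairs were apart, and Ass1 (19.3 to 21.7 RPKM) lay within reach of Asl (19.5 to 23.7 RPKM). Irg1 at the top and the 2 arginases at the bottom stood clear of the rest in both groups.

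Other settings moved Nos2, Slc7a2 and Odc1 across the threshold. With limma-voom on the recovered reads, which called 463 genes (3.86% of those tested), all 3 passed, with adjusted p of 0.0135 for Nos2, 0.00524 for Slc7a2 and 0.0123 for Odc1. In the authors' deposited table, which calls 594 of 24505 genes (2.42%), Nos2 is lower with hydroxyestrogens at an adjusted p of 0.00282, Slc7a2 at 0.000345 and Odc1 at 0.00567. The authors' deposited table also gives Ass1 as higher, at an adjusted p of 4.03e-13, and leaves Irg1 at 0.811, Gch1 at 0.901 and Asl at 0.770. In every one of the 14 alternatives the log2 difference of Nos2 (-0.51 to -0.29), Slc7a2 (-0.54 to -0.34) and Odc1 (-0.63 to -0.32) was negative, and each of the 3 passed in 4 of them. All 3 passed with limma-voom, on the authors' log2 values and, in the same limma test, with a mean of at least 100 reads (0.0499 for Nos2, 0.0499 for Slc7a2 and 0.0225 for Odc1).

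The next comparison set each catechol against the 3 controls, in a fit that takes the spread of a single library to be that of the controls. Ass1 was higher with each compound: by 0.92 ± 0.11 with 2OHE2 (SE; limma adjusted p = 0.0308), 0.98 ± 0.11 with 4OHE1 (adjusted p = 0.0126) and 1.15 ± 0.11 with 2OHE1 (adjusted p = 0.0150) on the log2 scale. Nos2 fell with 4OHE1, by 0.57 ± 0.08 on the log2 scale (SE; limma adjusted p = 0.0207). Its difference was -0.45 ± 0.08 with 2OHE2 (adjusted p = 0.0759) and -0.14 ± 0.08 with 2OHE1 (adjusted p = 0.485), neither past the threshold. Odc1 had its lowest value with 2OHE2 (log2 difference -0.72 ± 0.11 SE, adjusted p = 0.0506), and Slc7a2 with 4OHE1 (-0.66 ± 0.13, adjusted p = 0.0517). With 2OHE2, 1 of the 8 measured genes passed, beside 0.609% of all genes tested (0.3% higher and 0.309% lower). With 4OHE1, 2 of the 8 passed, beside 3.69% (1.41% higher and 2.28% lower). With 2OHE1, 1 of the 8 passed, beside 0.542% (0.334% higher and 0.208% lower).

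These single-library calls rest on the controls. Without E2 (control replicate 2), Ass1 had adjusted p of 0.142 with 2OHE2, 0.0617 with 4OHE1 and 0.0897 with 2OHE1, and Nos2 with 4OHE1 had 0.0897. Without 16Epi (control replicate 3), Ass1 with 2OHE2 had 0.0632 and Nos2 with 4OHE1 had 0.0537. Without EtOH (control replicate 1), Odc1 with 2OHE2 passed at 0.0331, Nos2 with 2OHE2 at 0.0446 and Slc7a2 with 4OHE1 at 0.0389.

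**Figure D3:**
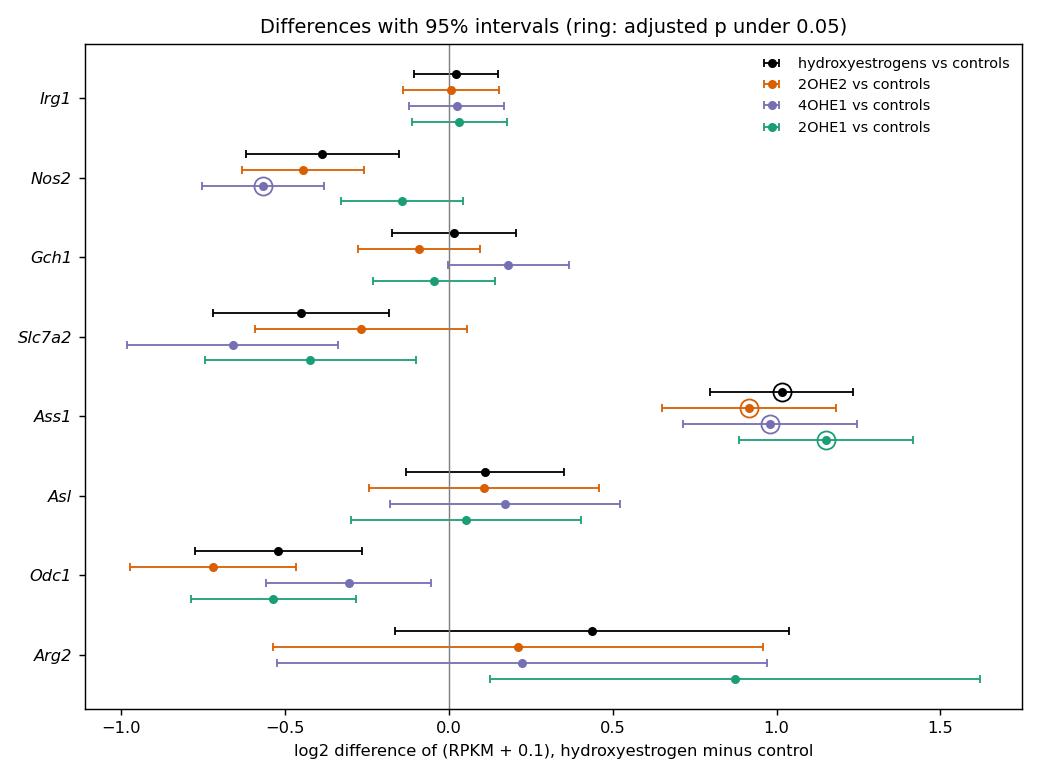
Log2 difference of (RPKM + 0.1), hydroxyestrogen minus control (x axis), for the 8 measured genes (rows), with 95% intervals from limma; black is all 3 hydroxyestrogens and colours are single compounds against the 3 controls, and a ring marks an adjusted p under 0.05. Ass1 lies between 0.92 and 1.15 with a ring in all 4 comparisons, and Nos2 has a ring with 4OHE1 alone.

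The 3 catechols were given at the same dose and time, so they can be set against each other. 2OHE2 and 2OHE1 carry the extra hydroxyl at the same place on the aromatic ring and differ in the D ring, where estradiol has a hydroxyl and estrone a ketone. 4OHE1 and 2OHE1 are both estrones and differ in where the extra hydroxyl sits. Over 3 pairs of compounds and 8 genes, 24 differences were tested and 0 passed (limma, adjusted over all genes); 5 had an unadjusted p under 0.05. The share of all genes that passed was 0.0417% for 4OHE1 against 2OHE1, 0.0417% for 2OHE2 against 2OHE1 and 0.0751% for 4OHE1 against 2OHE2. At an unadjusted p under 0.05 the shares of all genes were 15%, 10.6% and 15.8%. With 1 library per compound these tests have little power, and a miss does not show that the compounds act alike.

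Nos2 gave the smallest p of these pairs. Its level with 4OHE1 was 0.42 lower on the log2 scale than with 2OHE1 (log2 difference -0.42, 95% interval -0.65 to -0.20, limma adjusted p = 0.196), and it passed with limma-voom (0.0279). Between 2OHE2 and 2OHE1, which differ in the D ring, the Nos2 difference was -0.30 (95% interval -0.53 to -0.07, adjusted p = 0.397). For Gch1, 4OHE1 stood 0.27 above 2OHE2 on the log2 scale (95% interval 0.04 to 0.50, adjusted p = 0.264, and 0.0470 with limma-voom) and 0.23 above 2OHE1 (interval just above 0 to 0.46, adjusted p = 0.333). Odc1 was 0.41 higher with 4OHE1 than with 2OHE2 (95% interval 0.10 to 0.72, adjusted p = 0.239).

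No pair of compounds differed in Ass1 past the threshold. Ass1 had a log2 difference of -0.17 for 4OHE1 against 2OHE1 (95% interval -0.50 to 0.16), -0.23 for 2OHE2 against 2OHE1 (-0.56 to 0.09) and 0.06 for 4OHE1 against 2OHE2 (-0.26 to 0.39). Differences of up to 0.56 between compounds are thus within the intervals. Irg1 was bounded more tightly, with pair intervals of -0.18 to 0.17 (4OHE1 against 2OHE1), -0.20 to 0.15 (2OHE2 against 2OHE1) and -0.16 to 0.20 (4OHE1 against 2OHE2).

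Among the controls, E2 and 16Epi were set against the EtOH vehicle, in a fit whose spread came from the hydroxyestrogen libraries. Of 24 differences over 3 pairs and the 8 genes, 0 passed and 0 had an unadjusted p under 0.05 (limma). The spread used here holds differences between the catechols. For Nos2 the SE was 0.213 between controls and 0.0956 between catechols. These tests thus have little power, and a miss does not show that E2 or 16Epi had no effect. Over all genes 0.00834% passed for E2 against EtOH, 0.0167% for 16Epi against EtOH and 0.0167% for 16Epi against E2, and 1.35%, 1.51% and 1.37% had an unadjusted p under 0.05. Ass1 was at -0.17 with E2 against EtOH (95% interval -0.64 to 0.31) and at -0.11 with 16Epi against EtOH (-0.58 to 0.37). Neither interval reaches the Ass1 difference seen with the catechols. For Nos2 the values were 0.09 with E2 (95% interval -0.40 to 0.59) and 0.09 with 16Epi (-0.41 to 0.59), both against EtOH.

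Beyond the 9 genes, 5 lists of pathway neighbours and regulators were examined in the same fit. Of their 105 genes, 93 were tested; Oaz1 rose, Il10 fell, and the other 91 did not pass. That share, 2.15%, is near the 1.88% of all genes tested. The lists' medians lay between -0.11 and 0.06 on the log2 scale, beside -0.02 for all genes tested.

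**Figure D4:**
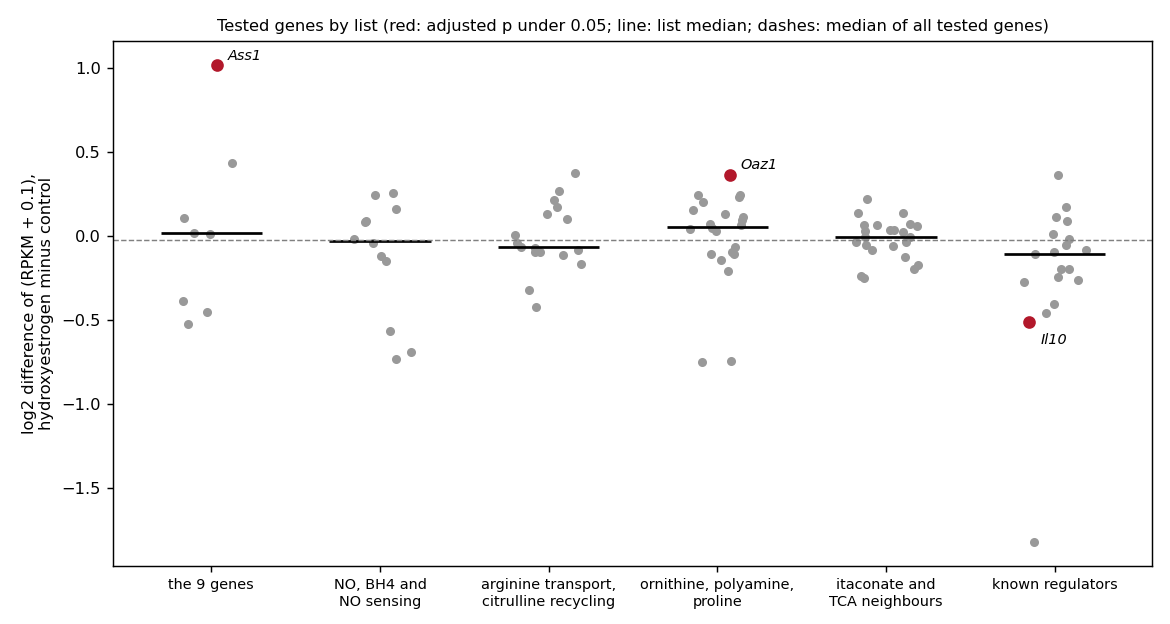
Log2 difference of (RPKM + 0.1), hydroxyestrogen minus control (y axis), for the tested genes of the 9 and of 5 lists (x axis); black lines are list medians, the dashed line is the median of all tested genes at -0.02, and red marks an adjusted p under 0.05. Ass1, Oaz1 and Il10 are red, and the lowest point is Ifnb1 at -1.82, which did not pass.

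Around nitric oxide, 12 of 18 listed genes were tested and 0 passed (limma). At an unadjusted p under 0.05 there were 0, against 13.5% of all genes tested. The list's median log2 difference was -0.03. The other nitric oxide synthases, Nos1 and Nos3, had at most 4 and 7 reads in any library. Nostrin, which traffics the endothelial synthase, had 3.76, 1.30 and 3.02 RPKM in the 2OHE2, 4OHE1 and 2OHE1 libraries, against 3.81, 5.05 and 3.72 RPKM in EtOH, E2 and 16Epi. The 4OHE1 library alone stood out, and with it Nostrin fell by 1.60 ± 0.27 on the log2 scale (SE; limma adjusted p = 0.0349), a call lost without E2 (0.101) or without 16Epi (0.0694). Ddah1, which degrades an endogenous inhibitor of nitric oxide synthase, averaged 0.470 ± 0.282 against 0.724 ± 0.0872 RPKM (SD, n = 3 each; adjusted p = 0.583). Nosip, an interactor of nitric oxide synthases, averaged 17.2 ± 1.26 against 19.1 ± 1.43 RPKM (adjusted p = 0.599).

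In the list of arginine transport and citrulline recycling, 17 of 18 genes were tested and 0 passed (limma). At an unadjusted p under 0.05 there were 3, against 13.5% of all genes tested. The median was -0.06. Slc3a2 is a heavy chain that several amino acid transporters share. It had 272.9, 327.0 and 266.2 RPKM in the 2OHE2, 4OHE1 and 2OHE1 libraries. The EtOH, E2 and 16Epi libraries had 226.9, 225.8 and 213.8 RPKM. All hydroxyestrogen values were above all controls, with 4OHE1 highest. Its log2 difference of 0.37 ± 0.08 (SE) had an adjusted p of 0.0646, and it passed with limma-voom (0.00718), with a mean of at least 100 reads (0.0245) and on the authors' log2 values (0.00570). In the authors' deposited table Slc3a2 is higher at an adjusted p of 0.000404. With 4OHE1 alone Slc3a2 rose by 0.56 ± 0.07 (adjusted p = 0.0173; 0.0825 without E2). Slc25a12, the mitochondrial carrier that exports aspartate, the partner of citrulline in the Ass1 reaction, averaged 39.9 ± 1.75 against 33.2 ± 0.713 RPKM (SD, n = 3 each; adjusted p = 0.174). In the authors' deposited table Slc25a12 is higher at an adjusted p of 0.0293. Slc7a7, a light chain that exports cationic amino acids, averaged 12.2 ± 1.69 against 16.3 ± 2.47 RPKM (adjusted p = 0.250), and Padi2, which makes citrulline residues in proteins, 3.30 ± 0.346 against 4.12 ± 0.142 RPKM (adjusted p = 0.499).

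Of the ornithine, polyamine and proline genes, 22 of 26 were tested, 1 rose and 0 fell; the median was 0.06. Oaz1, the antizyme that binds ornithine decarboxylase and sends it for degradation, had 180.9, 203.1 and 183.0 RPKM in the 2OHE2, 4OHE1 and 2OHE1 libraries, against 153.5, 148.9 and 137.9 RPKM in EtOH, E2 and 16Epi. Every hydroxyestrogen library was above every control, so Oaz1 and Odc1 stood on opposite sides of their controls. Oaz1 rose by 0.36 ± 0.07 on the log2 scale (SE; limma adjusted p = 0.0411). That call was lost whichever library was left out, with adjusted p of 0.0597 without 2OHE2, 0.0889 without 4OHE1, 0.0739 without 2OHE1, 0.0940 without EtOH, 0.146 without E2 and 0.205 without 16Epi, and also with median-ratio scaling (0.0763), no filter beyond 1 read (0.0973) and no variance trend (0.267). It held with limma-voom (0.0139), a mean of at least 100 reads (0.0165), a pseudocount of 1 (0.0378) and the authors' log2 values (0.0120). In the authors' deposited table Oaz1 is higher at an adjusted p of 0.00129. Azin1, the antizyme inhibitor, had 20.8 RPKM in the 4OHE1 library, against 31.5 to 32.7 RPKM in the controls, and with 4OHE1 it fell by 0.62 ± 0.10 on the log2 scale (adjusted p = 0.0294; 0.0990 without E2 and 0.0734 without 16Epi). It had 33.4 RPKM with 2OHE2 and 30.2 RPKM with 2OHE1. The proline genes Pycr1 (0.454 ± 0.202 against 0.801 ± 0.223 RPKM) and Prodh (1.09 ± 0.676 against 1.71 ± 0.336 RPKM; SD, n = 3 each) had adjusted p of 0.484 and 0.493.

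Around itaconate, 23 of 24 listed genes of the tricarboxylic acid cycle and its carriers were tested and 0 passed (limma). At an unadjusted p under 0.05 there were 0, against 13.5% of all genes tested. The median was -0.00244. Of the subunits of succinate dehydrogenase, the enzyme that itaconate inhibits, Sdha averaged 50.8 ± 5.29 against 57.0 ± 2.20 RPKM and Sdhb 116.1 ± 10.2 against 126.3 ± 2.63 RPKM (SD, n = 3 each), with adjusted p of 0.458 and 0.532. Idh1, the cytosolic isocitrate dehydrogenase, averaged 55.6 ± 3.49 against 50.5 ± 0.806 RPKM (adjusted p = 0.491). Idh3a, a subunit of a mitochondrial isocitrate dehydrogenase, averaged 24.5 ± 3.54 against 27.9 ± 0.835 RPKM (adjusted p = 0.510).

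The last list held 19 transcription factors and cytokines known to act on Nos2, Irg1 or Arg1. All 19 were tested, 0 rose and 1 fell, 7 had an unadjusted p under 0.05 against 13.5% of all genes tested, and the median was -0.11. The list was chosen with earlier results of these data known, so its share cannot be read as an enrichment. Il10, the anti-inflammatory cytokine interleukin-10, had 35.4, 41.7 and 33.9 RPKM in the 2OHE2, 4OHE1 and 2OHE1 libraries, against 53.4, 50.1 and 54.7 RPKM in EtOH, E2 and 16Epi. The groups were well apart. Il10 fell by 0.51 ± 0.10 on the log2 scale (SE; limma adjusted p = 0.0296), and the call held without 4OHE1 but not without any of the other 5 libraries (adjusted p 0.0806 without 2OHE2, 0.0822 without 2OHE1, 0.117 without EtOH, 0.0882 without E2 and 0.164 without 16Epi). The adjusted p of Il10 was 0.0609 with median-ratio scaling, 0.0738 with no filter beyond 1 read and 0.202 with no variance trend. Il10 passed with limma-voom (0.0129), a mean of at least 100 reads (0.00936), a pseudocount of 1 (0.0267) and the authors' log2 values (0.00988). In the authors' deposited table Il10 is lower at an adjusted p of 0.00463.

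Ifnb1, the interferon whose signal feeds the induction of Nos2 and Irg1, had 1.59, 9.57 and 7.41 RPKM in the 2OHE2, 4OHE1 and 2OHE1 libraries, against 15.8 to 20.9 RPKM in the 3 controls. The 2OHE2 library was far below the rest. With 2OHE2, Ifnb1 fell by 3.37 ± 0.21 on the log2 scale (SE; limma adjusted p = 0.00191), and Il6 fell by 0.73 ± 0.10 (adjusted p = 0.0432; 0.0932 without E2 and 0.0690 without 16Epi). Over the 3 hydroxyestrogens Ifnb1 had a log2 difference of -1.82 with an adjusted p of 0.165, and Il6 one of -0.40 with 0.199. Without 2OHE2 the Ifnb1 difference was -1.04 and passed (0.0318). With all 3 hydroxyestrogens, Ifnb1 passed with limma-voom (0.00969) and on the authors' log2 values (0.00204). Il6 passed on the authors' log2 values (0.0376). In the authors' deposited table, both are lower with hydroxyestrogens, Ifnb1 at an adjusted p of 0.268 and Il6 at 0.0305. The NF-kB genes Nfkb1 and Rel fell with 4OHE1, where they had 126.9 and 9.88 RPKM against 165.6 to 170.2 and 21.5 to 25.5 RPKM in the controls. Their log2 differences with 4OHE1 were -0.41 ± 0.07 (SE; adjusted p = 0.0345) and -1.20 ± 0.14 (adjusted p = 0.0134); without E2 these became 0.112 and 0.0587, and that of Nfkb1 became 0.0753 without 16Epi and 0.0591 with median-ratio scaling. Rel had 20.9 and 22.3 RPKM with 2OHE2 and 2OHE1, inside or close to the control range. Nos2 had 102.7 RPKM with 2OHE2, where Ifnb1 was lowest, and 94.4 RPKM with 4OHE1, where Rel was lowest. With 2OHE1, where Ifnb1 at 7.41 RPKM was below its 9.57 RPKM with 4OHE1, Nos2 had 126.8 RPKM. The controls had 134.1 to 143.1 RPKM of Nos2. Whether Ifnb1 or Rel plays a part in the Nos2 values was not tested.

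Among 7927 other genes of at least 10 CPM on average (recovered reads scaled to depth), those whose profile over the 6 libraries lay nearest to each of the 4 separated genes were taken by the root mean square difference of centred log2 values. Nearest to Ass1 were Tbcel (0.0518, Pearson r = 0.996), Gclm, a subunit of the enzyme that starts glutathione synthesis (0.0691, r = 0.994), and Unc5b (0.0877, r = 0.986). Nearest to Nos2 were Kbtbd4 (0.0346, r = 0.989), Kremen1 (0.0388, r = 0.998) and Cep350 (0.0452, r = 0.984). Among the profiles near to Odc1 were Btg2 (0.0743, r = 0.968) and Stambpl1 (0.0757, r = 0.972). Slc7a2 was nearest to 6330416G13Rik (0.0524, r = 0.982), Acvr1b (0.0611, r = 0.974) and Tacc1 (0.0615, r = 0.976). These are the closest of many profiles over 6 libraries that share their groups, and they are given as descriptions only.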

How the data were processed

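Illumina libraries of messenger RNA were made from 6 macrophage cultures, per the labels' protocols, and reads were aligned to mm9 with STAR, with HOMER, DESeq2 and edgeR also named, all without versions, per the submitters' processing notes. The authors made the RPKM values with HOMER from exon reads, keeping 1 entry for each gene, per the file headers. A second deposited table holds the authors' log2 expression values (transform not named), log2 fold change (positive where controls are higher, checked against the values), p-value and adjusted p-value. RPKM times transcript length and library total gave reads: 100% of 1873 to 2607 values per library (under 20 reads, transcripts under 6000 nt) lay within 0.1 of a whole number. Genes with at least 10 such reads in at least 3 libraries were tested with limma 3.58.1 (R 4.3.3) on log2(RPKM + 0.1), with a variance trend, two-sided, with Benjamini-Hochberg adjustment over all genes and a threshold of 0.05. A fold on this scale understates the change of low genes. Intervals are limma's, at 95%. Compounds were compared in fits with 1 coefficient per library of a group and 1 for the other group, which leave 2 residual degrees of freedom.

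Alternatives were a pseudocount of 1, median-ratio scaling, limma-voom with TMM on the recovered reads, other filters, no variance trend, the authors' log2 values, the replicate number as a block, and each library left out. The scripts were tested on simulated data. The 9 genes, the lists and the markers were chosen with earlier results of these data known. Named genes are the 9, the 4 of each list with the smallest p, list genes past the threshold with a compound, and the 3 nearest profiles; results of some of these genes are not reported here. Protein sequences were not used here. A library named in the RPKM command but without values was not analysed here.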

Additional observations from a re-analysis of the deposited data

How the results depend on the processing

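Over all genes, 463 passed with limma-voom, 350 with a mean of at least 100 reads, 493 on the authors' log2 values, 94 with no filter beyond 1 read and 12 with no variance trend, against 225; with 1 library left out the count was 64 to 191. Of the 8 measured genes, 4 passed with limma-voom, with at least 100 reads and on the authors' log2 values, 0 with no variance trend, and 1 to 2 with a library left out. Same-numbered deviations correlated at -0.036, 0.066 and 0.044, so no pairing of the libraries by replicate number was seen. Each number is also a different compound within each group, so these values cannot exclude a pairing. With the replicate block 165 genes and 2 of the 8 passed, while Oaz1 (0.0610) and Il10 (0.0641) did not. Against controls limma-voom called 542 (2OHE2), 1642 (4OHE1) and 476 (2OHE1) genes, and with a control left out 14 to 180, 44 to 621 and 8 to 164. Between catechols limma-voom called 311 (4OHE1 against 2OHE1), 48 (2OHE2 against 2OHE1) and 329 (4OHE1 against 2OHE2), and a pseudocount of 1 called 1 for 2OHE2 against 2OHE1 and 3 for 4OHE1 against 2OHE2. Between controls a pseudocount of 1 called 0, 1 and 0 (E2 against EtOH, 16Epi against EtOH, 16Epi against E2), limma-voom 0 in each, and median-ratio scaling 5 for 16Epi against E2. With a library left out, Gch1 over all hydroxyestrogens lay between -0.0680 and 0.0682, and its sign turned without 4OHE1 (-0.0680) and without 16Epi (-0.00275). The sign also turned with median-ratio scaling and limma-voom for Irg1 with 2OHE2 (-0.0258 and -0.0266), with 4OHE1 against 2OHE1 (0.0392 and 0.0357) and with 16Epi against EtOH (-0.0242 and -0.0202), and for Odc1 with 16Epi against EtOH (-0.0153 and -0.0113). None of these was past the threshold in either form. The counts with other filters test more or fewer genes; otherwise the cause was not tested. Depth limits Arg1, which had at most 16 reads.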
